A study of Mus musculus with 36 samples.

Results

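The 10 genes described here make, break down or regulate the polyamines, and their messenger RNA was followed in the gastrocnemius (calf) muscle of mice that ran different distances on a high-fat diet. They were taken by name (Odc1, Amd1, Amd2, Srm, Sms, Smox, Sat1, Oaz1, Oaz2 and Azin1) from a table of 46893 features, and all 10 were found and passed the minimum of a mean count of 25 per library. RNA of 36 wild-type C57BL/6 males, aged 3 to 4 weeks at the start and kept for 12 weeks, was sequenced, 1 poly(A)-selected library for every mouse, in 6 groups of 6. One sedentary group (NFD-C) was fed AIN93G, and a second (HFD-C) a high-fat diet. The 24 running mice all ate the high-fat diet, and a wheel with a brake set their average distance to 2.1 (HFD-25%), 4.2 (HFD-50%) or 6.3 km/day (HFD-75%), while the unrestricted group (HFD-U) averaged 8.3 km/day. The mice carried no transgene, only males were used, and the RNA came from whole muscle, so a lower level can mean fewer cells of a type or less RNA per cell, which cannot be told apart here.

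Putrescine, spermidine and spermine are small positively charged molecules that bind nucleic acids and are needed for translation and growth. Ornithine decarboxylase (Odc1) makes putrescine, S-adenosylmethionine decarboxylase (Amd1) supplies the aminopropyl group, and spermidine synthase (Srm) and spermine synthase (Sms) add it. Spermine oxidase (Smox) and the acetyltransferase Sat1 work in the opposite direction, antizymes (Oaz1, Oaz2) bind ornithine decarboxylase and send it to the proteasome, and the antizyme inhibitor (Azin1) binds antizyme and so releases the enzyme. In skeletal muscle Smox, Amd1 and Odc1 are known to be expressed in fibres and to respond to androgen, denervation and disuse.

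Libraries held 13060090 to 27981702 counts on genes. All 9 markers of muscle fibres were detected in every library. The part of the counts that fell on 6 rRNA-linked features (the rRNA-linked share) set the libraries apart: it was 2.01% or more in all NFD-C mice and in HFD-C mice 1 to 4 (10 libraries), and at most 1.02% in HFD-C mice 5 and 6 and in all running mice (26 libraries). Running and library set therefore cannot be told apart except through HFD-C mice 5 and 6. The libraries of a group are separate mice.

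Amd1 and Amd2 call for care, since they are near copies of each other on chromosome 10. Their reference transcripts (GENCODE M21, GRCm38) differ in 14 of 3204 aligned bases, and 61.6% of the stretches of Amd2 as long as a read (150 bases) occur unchanged in Amd1, so reads between them could be shared out wrongly. Counts on Amd2 amounted to 0.512 to 1.56% of those on Amd1. Around their starts the longest stretch they share, 48 bases, begins within the first bases of the transcripts and not before them. These windows (RefSeq, GRCm38.p6) are printed 5′ to 3′ on the gene's strand to show where the copies part, together with those of Odc1 and Smox for comparison, and capitals mark the letters TATAA on either strand. They lie at chr10:40302189-40302288 (minus strand) for Amd1, chr10:35711892-35711991 (minus) for Amd2, chr12:17544773-17544872 (plus) for Odc1 and chr2:131491762-131491861 (plus) for Smox.
Amd1: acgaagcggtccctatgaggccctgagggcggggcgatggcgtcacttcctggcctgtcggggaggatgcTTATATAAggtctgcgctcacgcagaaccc
Amd2: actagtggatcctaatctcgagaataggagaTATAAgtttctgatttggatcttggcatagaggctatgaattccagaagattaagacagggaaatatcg
Odc1: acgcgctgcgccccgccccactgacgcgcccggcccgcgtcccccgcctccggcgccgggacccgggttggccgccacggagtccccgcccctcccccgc
Smox: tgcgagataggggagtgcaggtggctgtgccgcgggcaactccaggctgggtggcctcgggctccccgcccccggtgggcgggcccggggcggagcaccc

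The letters TATAA begin at position -27 in Amd1 and at -69 in Amd2, counted from the transcript start. They occur in 2 of 9 windows of the 8 members with an entry (Sms has more than one start), against 10.2% of all 32851 windows of this length. The E-box letters CACGTG occur in 0 of the 9 windows, against 3.17% of all. The Amd2 window holds 38% G or C, the Amd1 window 63%, Smox 78% and Odc1 86%, where the median of all windows is 55%. No window was read for Srm and Azin1.

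Per length of the gene model, the members spanned a wide range of levels. Over the 36 mice the mean level in FPKM (counts scaled for gene length and library size) was 450 for Amd1 and 310 for Oaz1. It was 135 for Odc1, 76.1 for Oaz2, 71.0 for Smox and 35.6 for Sms. Sat1 (14.3), Srm (6.24), Amd2 (3.83) and Azin1 (3.68) were the lowest. The spermine-forming synthase Sms was thus higher than the spermidine-forming Srm, and Azin1 stood far below both of the antizymes it binds. Mice differed most for Smox, whose highest level was 28.1 times its lowest, and Amd1 (17.3 times). Oaz1 and Oaz2 differed least, by 2.13 and 2.14 times. All further levels are CPM, counts scaled for library size with TMM factors, which compare mice for the same gene.

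Across the 6 groups, 1 of 10 members passed the adjusted test, Azin1. Differences were tested by edgeR (quasi-likelihood, Benjamini-Hochberg over 12053 genes) with a limit of 0.05, which 1.45% of all genes passed after adjustment and 12.2% before it. Before it, 3 members were within the limit, Azin1 (adjusted p = 0.0491), Sat1 (adjusted p = 0.209) and Oaz2 (adjusted p = 0.334). A member is said below to be called where it was within the limit before adjustment, and to have passed where it was within it afterwards. In the order of group means, 0 of 50 pairs of neighbouring groups were called in this fit. Neighbours were picked from the order of these same means, so their gaps are small by choice. That count therefore cannot show whether groups differ. Among all 150 pairs of groups, taken over the members, 24 were called and 2 passed. The share of all genes called or passing is not given for these pairs, so the counts have no background beside them. Adjustment was over the genes within each pair of groups, not over the pairs.

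Odc1 (NCBI gene 18263, chr12:17594809-17601503, GRCm39) makes putrescine, the entry step of the pathway. Odc1 was lowest in HFD-C, at 186 CPM in the lowest, 267 in the median and 404 in the highest mouse, and highest in HFD-U (245, 401 and 606). It ran from 275 over 365 to 560 CPM in NFD-C, from 119 over 348 to 413 in HFD-25%, from 182 over 296 to 774 in HFD-50% and from 170 over 333 to 649 in HFD-75%. Every group overlapped every other, and the test over the groups gave an adjusted p of 0.860.

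Amd1 (NCBI gene 11702, chr10:40163454-40178184), the source of the aminopropyl group, was highest by its group mean in NFD-C, with 1049 CPM in the lowest, 1757 in the median and 2753 in the highest mouse. It was close to that in HFD-U (1020, 1792 and 2613), and its mean was lowest in HFD-50% (159, 1116 and 1567). The HFD-50% mean includes mouse 4 at 159 CPM, while the other 5 mice of that group had a mean of 1206 CPM. HFD-C gave 588, 1189 and 1759, HFD-25% 521, 1529 and 2019, and HFD-75% 832, 1308 and 1969 CPM. Every group overlapped every other, with an adjusted p of 0.654 over the groups. Its near copy Amd2 (NCBI gene 100041585, chr10:35584687-35587887) stood at group means of 9.11 ± 4.18 CPM in HFD-C to 16.0 ± 6.57 in HFD-U (SD, n = 6), with 2.48 CPM in the lowest and 24.1 in the highest mouse.

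Of the synthases, Srm (NCBI gene 20810, chr4:148675970-148679076) had group means from 7.25 ± 0.724 CPM in HFD-U to 9.13 ± 3.30 in HFD-50% (SD, n = 6). The HFD-50% mean of Srm includes mouse 4 at 14.4 CPM, while the other 5 mice had a mean of 8.07 CPM. Sms (NCBI gene 20603, chrX:156226847-156275283) had its lowest mean in HFD-50%, with 90.4 CPM in the lowest, 102 in the median and 135 in the highest mouse, and its highest in HFD-U (111, 157 and 216). Neither was called over the groups (adjusted p = 0.648 and 0.554). In the fit of HFD-50% and HFD-U alone, Sms was 0.53 lower on the log2 scale in HFD-50% (SE 0.154, adjusted p = 0.247), and all 6 HFD-50% mice lay below the HFD-U median.

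Smox (NCBI gene 228608, chr2:131333624-131367103) turns spermine back into spermidine and releases hydrogen peroxide. Its lowest group mean was that of HFD-C, with 252 CPM in the lowest, 367 in the median and 497 in the highest mouse. It was highest in HFD-U (394, 501 and 1204) and next in NFD-C (394, 533 and 786). HFD-25% gave 159, 477 and 777, HFD-50% 42.8, 427 and 560, and HFD-75% 277, 473 and 751 CPM. All 6 mice of NFD-C and all 6 of HFD-U exceeded the HFD-C median, while the ranges of all these groups overlapped.

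Sat1 (NCBI gene 20229, chrX:153996122-153999445) acetylates spermidine and spermine for export or oxidation. Its highest mean was that of HFD-50%, where the lowest mouse had 19.97, the median 28.4 and the highest 47.0 CPM. The lowest was NFD-C, at 16.9, 18.7 and 23.9 CPM. In HFD-C it ran from 16.7 over 22.2 to 27.7, in HFD-25% from 17.6 over 24.2 to 27.5, in HFD-75% from 21.9 over 24.4 to 27.9 and in HFD-U from 18.6 over 20.8 to 26.0 CPM. In the edgeR fit over the 6 groups Sat1 was 0.60 higher on the log2 scale in HFD-50% than in NFD-C (adjusted p = 0.0302), which is 1 of the 2 pairs that passed. These groups differ in diet, in running and in library set at once. Without HFD-50% mouse 4 Sat1 was no longer called over the groups (adjusted p = 0.489).

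**Figure D1:**
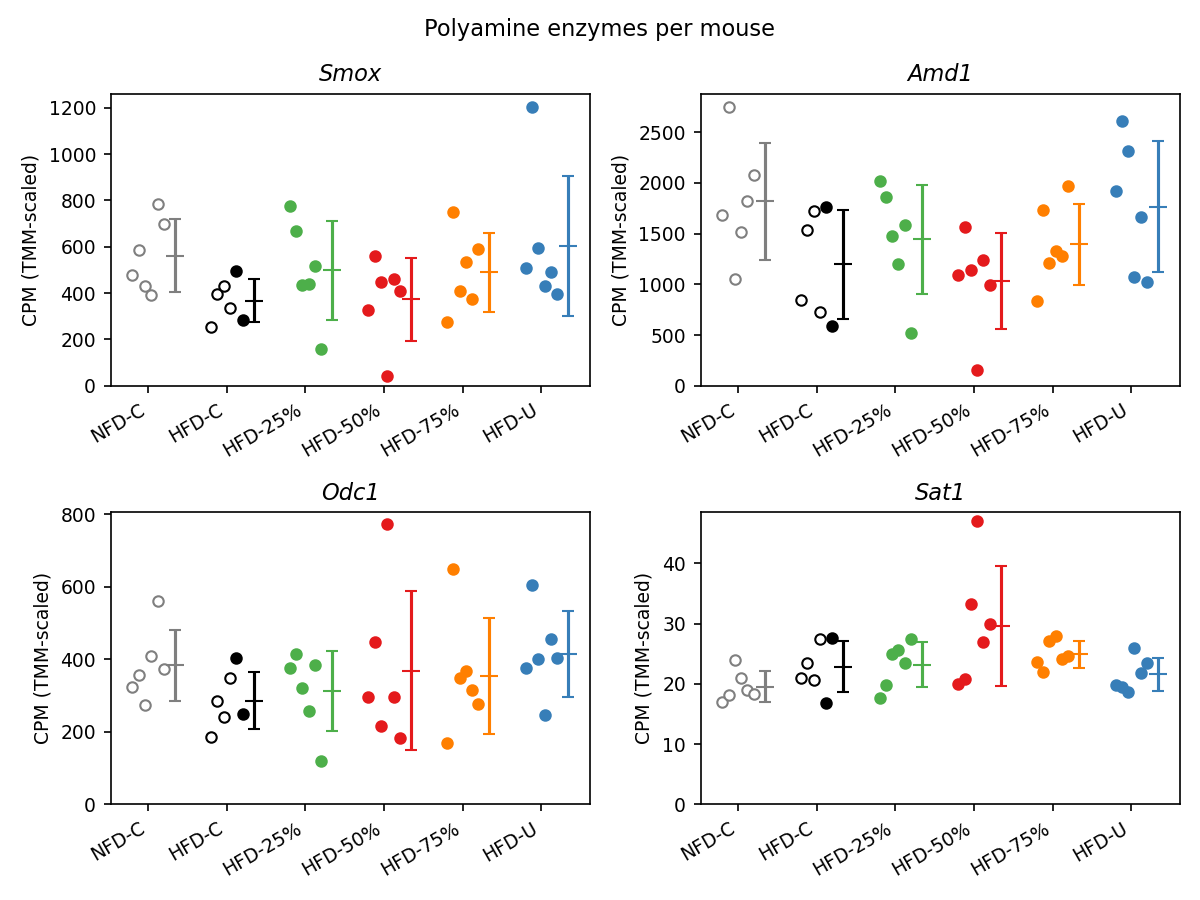
Smox, Amd1, Odc1 and Sat1 in each of the 36 mice, as TMM-scaled CPM from 0, by group; open points are libraries with an rRNA-linked share of at least 1.5% and filled points those under it, and the bar beside each group is its mean ± SD (n = 6). Groups overlap in every panel, and HFD-50% mouse 4 is lowest of all for Smox and Amd1 and highest for Odc1 and Sat1.

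The antizymes varied little between mice. Oaz1 (NCBI gene 18245, chr10:80662490-80665124) had group means from 298 ± 21.5 CPM in HFD-50% to 364 ± 92.1 in HFD-C (SD, n = 6). Oaz2 (NCBI gene 18247, chr9:65583830-65597582) was lowest in NFD-C, at 111, 124 and 134 CPM in the lowest, median and highest mouse, and highest in HFD-C, at 125, 147 and 236. The 4 running groups lay between, with means from 131 ± 11.6 CPM in HFD-50% to 151 ± 10.5 in HFD-75%. Mouse 6 of HFD-C was the highest of the 36 for both antizymes. The call of Oaz2 over the groups was lost without HFD-C mouse 6 (adjusted p = 0.463), HFD-C mouse 5, NFD-C mouse 1 or HFD-75% mouse 1.

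The antizymes did not keep 1 ratio. In NFD-C the CPM of Oaz1 was 2.55 to 3.01 times that of Oaz2, and in HFD-C 2.11 to 2.51 times. The HFD-C mouse nearest to NFD-C, at 2.51, was mouse 5 of the low library set, while all NFD-C mice are of the high set. How many other pairs of genes part these groups as clearly was not counted. In the running groups the ratio lay between 1.76 and 2.74. The ratio was looked at after the levels had been seen and is given as a description.

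Azin1 (NCBI gene 54375, chr15:38487674-38523506), which releases ornithine decarboxylase from antizyme, was the 1 member that passed the adjusted test over the groups. Its level was lowest in HFD-50%, with 19.1 CPM in the lowest, 23.8 in the median and 31.8 in the highest mouse, and highest in HFD-U, with 30.4, 38.0 and 65.0. HFD-75% (20.5, 29.9 and 35.1 CPM) and HFD-25% (22.8, 29.4 and 43.1) lay above HFD-50% in their means. The sedentary groups stood higher again, HFD-C at 27.6, 34.8 and 48.5 CPM and NFD-C at 31.6, 36.3 and 50.2. The order of the means was thus HFD-U, NFD-C, HFD-C, HFD-25%, HFD-75% and HFD-50%. No pair of neighbours in it was called in the fit over the 6 groups, where neighbours have small gaps by choice.

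In the fit over the 6 groups, Azin1 was 0.80 higher on the log2 scale in HFD-U than in HFD-50% (adjusted p = 0.0319). Against NFD-C, HFD-50% was at -0.60 with an adjusted p of 0.0551. The adjusted p of Azin1 over the groups rests near the limit: it was at most 0.05 without 8 of the 36 mice and above it without each of the other 28, highest at 0.116 without HFD-U mouse 2. Its call before adjustment was kept without each of the 36. The adjusted p was 0.119 after correction for the rRNA-linked share, 0.200 when the library set was fitted too, and 0.00546 with DESeq2 on the same genes. Among the HFD-C mice, the 2 of the low library set had 30.2 and 28.9 CPM of Azin1 and the other 4 had 27.6 to 48.5 CPM. The part of the library set in the differences between sedentary and running mice was not tested apart from these fits. HFD-50% and HFD-U are both of the low set.

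**Figure D2:**
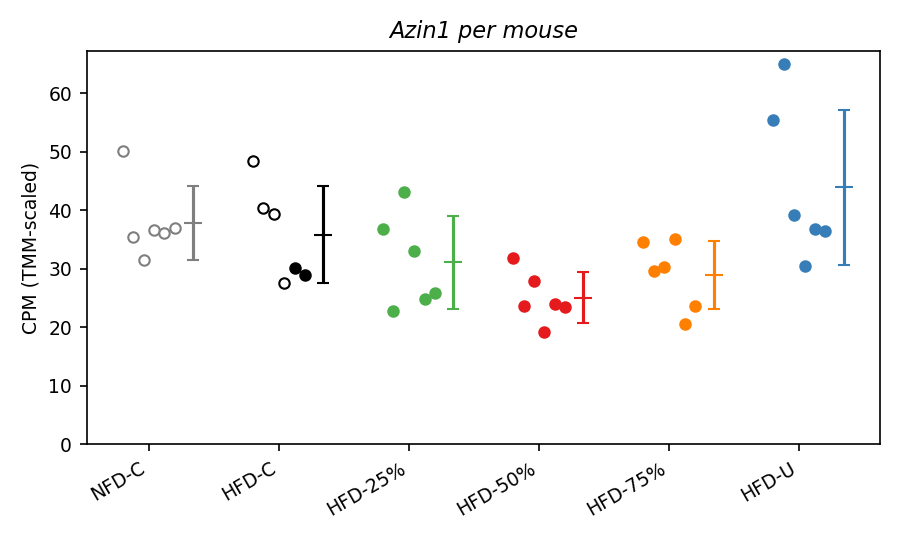
Azin1 in each of the 36 mice, as TMM-scaled CPM from 0, by group; open points are libraries with an rRNA-linked share of at least 1.5% and filled points those under it, and the bar beside each group is its mean ± SD (n = 6). The HFD-50% mice sit between 19.1 and 31.8 CPM, and 5 of the 6 HFD-U mice lie above 36 CPM.

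Each exercise group was compared with the same 6 HFD-C mice, to ask what running added to the high-fat diet, so these comparisons share their controls. In all of them 0 members passed in edgeR or in DESeq2. With all 24 running mice together, 1 of 10 members was called, against 9.27% of 12006 genes (0.3% passed). This was Oaz2, at -0.21 on the log2 scale (SE 0.0924, adjusted p = 0.453). It was no longer called without HFD-C mouse 6 (-0.06) or HFD-C mouse 5 (-0.19). When the library set was fitted too, the difference of Oaz2 was -0.56 (adjusted p = 0.0368), and within the low set alone -0.55 (adjusted p = 0.0478), where HFD-C is made of mice 5 and 6 only. In these fits Oaz1 was at -0.57 in both (adjusted p = 0.0552 and 0.0675). HFD-C mice 5 and 6 had 419 and 525 CPM of Oaz1, and HFD-C mice 1 to 4 had 286 to 341. Without HFD-C mouse 1 or 4, 2 members were called. The median difference of the members was 0.04, that of all genes -0.00070.

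In HFD-U, 3 of 10 members were called higher than in HFD-C and 0 lower, against 2.15% of 12023 genes called higher, 3.31% lower and 5.46% called in either direction. Smox was 0.71 higher on the log2 scale (SE 0.255, adjusted p = 0.757), Amd2 0.79 higher (SE 0.321, adjusted p = 0.845) and Odc1 0.52 higher (SE 0.209, adjusted p = 0.845). Amd1 was 0.54 higher and not called (SE 0.303, adjusted p = 0.953). No pairing of mice is stated. Same-numbered mice of these groups had weakly correlated deviations (r of 0.122 to 0.514), so a fit blocked on the mouse number was set beside this one. In it, 5 members were called, Amd1 (0.60, adjusted p = 0.172) and Azin1 (0.26, adjusted p = 0.397) besides Smox (0.63), Amd2 (0.84) and Odc1 (0.52), and 0 passed, the lowest adjusted p being 0.114 for Amd2. The share of all genes called is not given for this blocked fit or for the fit with the library set below. The counts of members called in them thus have no background beside them. Without HFD-U mouse 2, which had the highest Smox of all mice, only Smox was called (0.39), and HFD-C mice 1 and 3 (Odc1) and HFD-C mice 4 and 6 and HFD-U mouse 1 (Amd2) each took 1 call with them. When the library set was fitted too, Smox was 0.60, Odc1 0.32 and Amd2 0.85 higher, and none of these 3 was called. In that fit the members called were Oaz1 (-0.56), Oaz2 (-0.57) and Srm (-0.62), all lower in HFD-U (adjusted p = 0.263, 0.263 and 0.281). There the 6 HFD-U mice are in effect set against HFD-C mice 5 and 6 only. Smox and Odc1 were not called in the fit over all 6 groups either.

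In HFD-50%, Azin1 was the 1 member called, at a background of 10.7% of 12116 genes. It was at -0.52 on the log2 scale against HFD-C (SE 0.156, adjusted p = 0.235), and it stayed called without any 1 of the 12 mice. When the library set was fitted too it was at -0.26 and not called. The count of members called was 3 without HFD-C mouse 1 or 4 or HFD-50% mouse 1 or 2, and 2 without HFD-C mouse 3. Sms (-0.31, adjusted p = 0.478), Oaz2 (-0.29), Sat1 (0.38) and Oaz1 (-0.30) were the next nearest to the limit. Odc1 was at 0.36 (SE 0.312) and Amd1 at -0.23 (SE 0.407), and without HFD-50% mouse 4 they were at -0.0046 and -0.0014.

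In HFD-25% and HFD-75%, 0 members were called in edgeR, against 6.98% of 12202 (0.0082% passed) and 5.47% of 12113 genes. The largest differences were those of Amd2 (0.44 and 0.50) and Smox (0.42 and 0.41), with standard errors between 0.230 and 0.361. Without HFD-25% mouse 1 they were 0.21 for Amd2 (0.28 without HFD-C mouse 4) and 0.26 for Smox in HFD-25%, and without HFD-75% mouse 2 they were 0.32 and 0.25 in HFD-75%. Azin1 was at -0.23 in HFD-25% and -0.32 in HFD-75%, but at 0.043 and -0.051 when the library set was fitted too and at 0.087 and -0.011 after correction for the rRNA-linked share. In HFD-25% 1 member was called without HFD-C mouse 1 or 2 or HFD-25% mouse 6. In HFD-75% 2 were called without HFD-75% mouse 1, and 1 without HFD-C mouse 2, 4, 5 or 6 or HFD-75% mouse 4. When the library set was fitted too, Oaz1 was at -0.64 and -0.41 and Oaz2 at -0.58 and -0.44 in these groups, and all 4 differences were called.

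The diet comparison among sedentary mice used the same HFD-C mice. In NFD-C, Smox was 0.62 higher (SE 0.201) and Odc1 0.43 higher (SE 0.198) than in HFD-C, and Oaz2 was at -0.35 (SE 0.143), each with an adjusted p of 0.9996. That is 2 of 10 members called higher and 1 lower, against 1.98% and 2.14% of 12247 genes and 4.12% in either direction, and 0 passed in edgeR or in DESeq2. Amd1 was 0.60 higher and not called (SE 0.285). The call of Odc1 was lost without any 1 of 8 of the 12 mice (NFD-C 2, 4, 5 and 6, HFD-C 1, 2, 3 and 6), that of Oaz2 without HFD-C mouse 6 or NFD-C mouse 1, and that of Smox was kept without each. Within the high library set, which leaves out HFD-C mice 5 and 6, Smox was 0.67 and Odc1 0.53 higher and both were called, while Oaz2 was at -0.15 and not called. In the fit over all 6 groups neither Smox nor Odc1 was called. The count of members called was 5 without NFD-C mouse 3, 6 without HFD-C mouse 5 and 1 without HFD-C mouse 6.

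**Figure D3:**
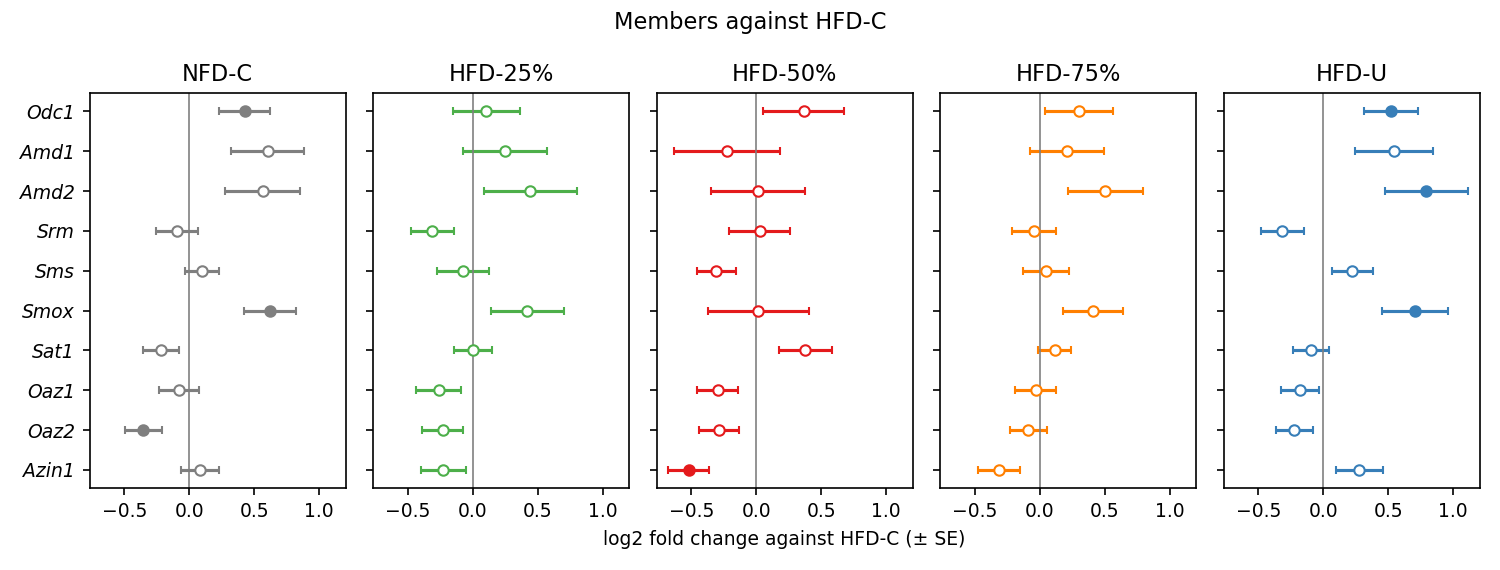
Log2 fold change of each member against HFD-C in NFD-C and in the 4 running groups, with its standard error, from fits of 2 groups of 6 mice that share the same HFD-C mice; filled points were called, that is within 0.05 before adjustment. Smox lies at 0.62 in NFD-C and 0.71 in HFD-U, and Azin1 at -0.52 in HFD-50%.

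Running groups were also compared with each other, which leaves the sedentary mice and the high library set out. Against HFD-U, 4 of 10 members were called in HFD-50%, where 12.4% of 11851 genes were. Azin1 was at -0.80 (SE 0.178, adjusted p = 0.172), Sms at -0.53, Amd2 at -0.79 (SE 0.336, adjusted p = 0.365) and Sat1 at 0.47 (SE 0.190, adjusted p = 0.346). In edgeR 0 of them passed, where 0.00844% of all genes did, and in DESeq2 1, Azin1 (adjusted p = 0.00960). Azin1 and Sms kept their call without each of the 12 mice. Amd2 was not called without HFD-50% mouse 3 or 6 or HFD-U mouse 1, 2 or 3, nor Sat1 without HFD-50% mouse 3 or 4 or HFD-U mouse 3. After correction for the rRNA-linked share Azin1 was at -0.52 and still called, but Amd2 turned to 0.029 and Sat1 to -0.0046.

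In HFD-75% and HFD-25%, Azin1 was the 1 member called against HFD-U, at -0.60 (adjusted p = 0.556, background 5.57%) and -0.50 (adjusted p = 0.927, background 5.1%). The latter call was lost without HFD-U mouse 2 (-0.35) and after correction for the rRNA-linked share (-0.31). In HFD-75% 3 members were called without HFD-75% mouse 1 or 2 or HFD-U mouse 4. All running groups below the full distance thus had Azin1 called lower than HFD-U, and they share the HFD-U mice.

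Over the distance itself, taken as 0, 25, 50, 75 and 100% of the unrestricted one with a linear and a quadratic term, Azin1 was the 1 member that passed. With the 30 high-fat mice the adjusted p was 0.0433 (edgeR over 12006 genes, of which 12.2% were called and 0.683% passed). The fitted curve was lowest at 46.4% of the full distance, -0.53 on the log2 scale against 0 km, and ended 0.18 above it at the full distance. Among the 24 runners alone Azin1 was called but did not pass (adjusted p = 0.114), where 8.49% of 11935 genes were called and 0.0419% passed. There the curve turned at 53.0%.

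The adjusted p over the 30 mice was above 0.05 without any 1 of 16 of them, highest without HFD-U mouse 2 (0.116), and it was 0.0940 after correction for the rRNA-linked share, 0.122 with the library set fitted too, and 0.00635 with DESeq2. Without HFD-25% mouse 1 or 2 or HFD-U mouse 4, 3 members were called, and 2 without HFD-C mouse 4 or 6, HFD-25% mouse 3 or 5, HFD-50% mouse 1 or 2 or HFD-75% mouse 2. Sat1 was the other member called among the runners (adjusted p = 0.552), with a fitted peak at 57.7% of the distance. That call was lost without HFD-50% mouse 3, 4 or 6 or HFD-U mouse 1, 2 or 3. Smox, Amd1 and Odc1 had adjusted p of 0.668, 0.681 and 0.654 over the 30 mice.

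Single mice were the lowest or the highest of the 36 for several members. HFD-50% mouse 4 was the lowest of the 36 for 4 members and the highest for 3. It had 159 CPM of Amd1 where the other 5 mice of its group had 993 to 1567, and 42.8 CPM of Smox against 325 to 560. In contrast it had 774 CPM of Odc1 against 182 to 448, 47.0 of Sat1 against 19.97 to 33.3, and 14.4 of Srm against 5.25 to 10.9. Sms (103 CPM against 90.4 to 135) and Oaz1 (301 against 262 to 323) were within the range of the group. The polyamine genes of this mouse therefore did not shift together, as both decarboxylases of the pathway lay at opposite ends. Its library had 17001956 counts and the highest rRNA-linked share of the low set (1.02%). Its summed level of the markers listed for adipocytes (Adipoq, Plin1, Cfd, Lep and Car3) was the highest of the 36 (3091 CPM). The sum is not split by marker here, so it is not read as an amount of fat cells. Of the 5 adipocyte markers, however, only 3 were detected in this mouse and 2 were at 0. It had the lowest sums of satellite cell markers (7.39 CPM) and fibroblast markers (193 CPM). Its fast 2B fibre sum of 48837 CPM was the 4th lowest. The part of these library and marker levels in its values was not tested.

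HFD-U mouse 2 was the highest of all for 4 members, among them Smox (1204 CPM), Azin1 (65.0) and Sms (216). HFD-25% mouse 6 was the lowest for 3, with 119 CPM of Odc1, 67.6 of Sms and 247 of Oaz1. That mouse also had the lowest fast 2B sum (30458 CPM), next to the highest slow fibre sum (2416 CPM) and the highest endothelial sum (419 CPM). In HFD-U mouse 2 the fast 2B sum was 86646 CPM and the slow fibre sum 115 CPM.

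**Figure D4:**
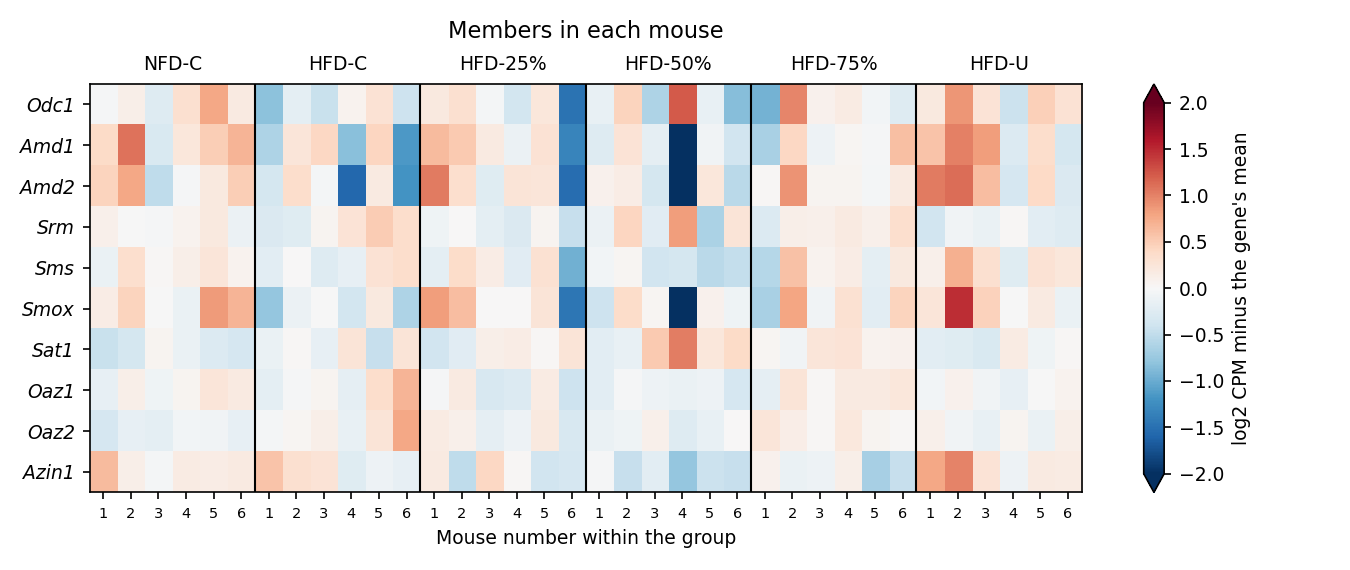
Each member (rows) in each of the 36 mice (columns, numbered within groups), as log2 CPM minus the gene's mean over all mice on a scale clipped at -2 and 2. HFD-50% mouse 4 is dark blue for Amd1, Amd2 and Smox and red for Odc1, Srm and Sat1, and HFD-25% mouse 6 is blue for Odc1, Amd1, Amd2, Sms and Smox.

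Across mice the members differed in how closely they followed Amd1, without a clear split. Over the 36 mice, which share groups and library sets, the log2 CPM of Amd1 and Smox had Pearson's r = 0.93 and Spearman's rho = 0.88, and r = 0.82 without the 2 mice farthest from the median of Amd1 (HFD-50% mouse 4 and HFD-25% mouse 6). As deviations from group means r was 0.91, and within the high and low library sets 0.78 and 0.96. Amd1 and Sat1 went opposite ways (r = -0.79, rho = -0.76, and -0.66 without the 2 mice). Amd1 and Amd2 had r = 0.90, a value that misassigned reads can raise. Odc1 and Amd1 had r = 0.21 and rho = 0.51, and r = 0.69 without HFD-50% mouse 4. The r with Amd1 was 0.55 for Sms, 0.28 for Oaz1, 0.03 for Oaz2 and -0.26 for Srm.

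Odc1 followed Smox weakly over all mice (r = 0.22, rho = 0.54), yet r was 0.80 when HFD-50% mouse 4 was left out, and 0.73 without that mouse and HFD-25% mouse 6. Odc1 and Sms had r = 0.69 and rho = 0.65 (0.77 without the 2 mice), and Oaz1 and Oaz2 r = 0.66 and rho = 0.49 (0.43 without the 2 farthest). Azin1 had r of 0.46 with Amd1 and -0.55 with Sat1. These are descriptions of 45 pairs, without a test.

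**Figure D5:**
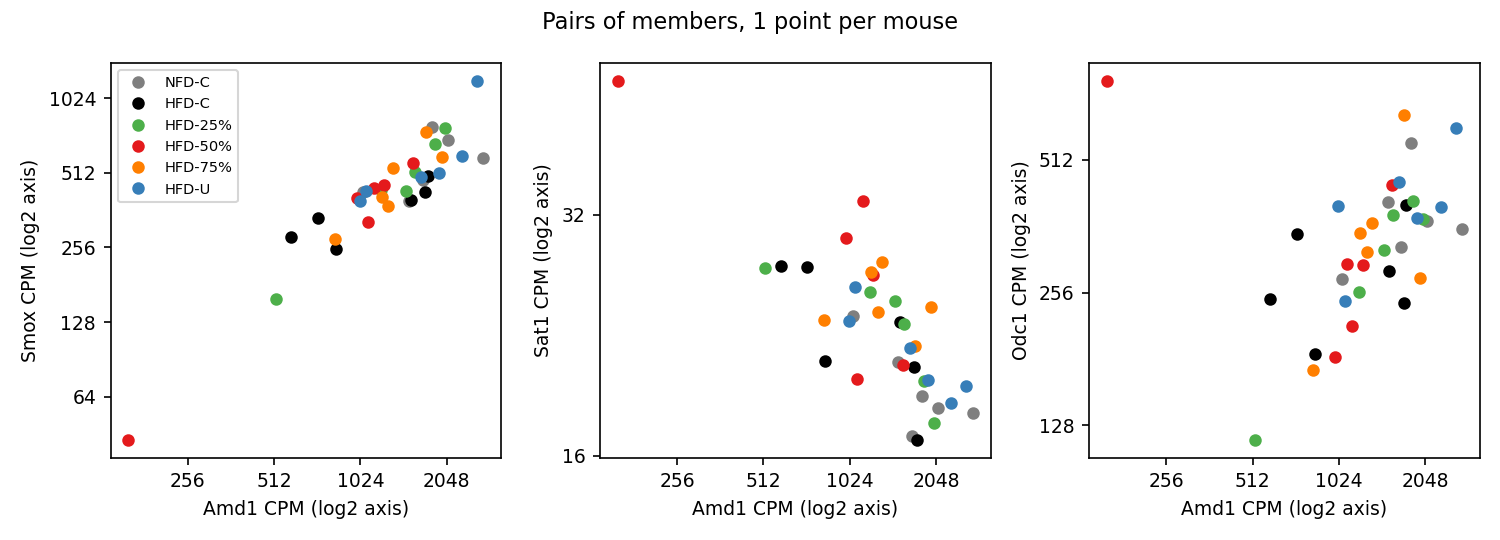
Smox, Sat1 and Odc1 against Amd1, 1 point per mouse, both axes CPM on a log2 scale, coloured by group. Smox rises along with Amd1 (r = 0.93), Sat1 goes the opposite way (r = -0.79), and HFD-50% mouse 4 sits at the far left with low Smox and high Sat1 and Odc1.

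Fibre type markers moved with several members. The summed level of 4 fast 2B fibre markers ran from 30458 to 90740 CPM, and its r over the 36 mice was 0.78 with Sms, 0.72 with Amd1, 0.68 with Smox, 0.58 with Odc1, -0.52 with Sat1 and 0.12 with Azin1. All 4 markers were detected in every library, and group medians ran from 59087 CPM in HFD-50% to 75778 in NFD-C. The sum of 6 slow fibre markers, 4 of them detected in every library, ran from 31.0 to 3062 CPM, with medians from 72.1 in NFD-C to 1261 in HFD-50%, and its r was -0.58 with Sms and 0.43 with Sat1. For 5 blood markers (119 to 407 CPM, group medians 197 to 266) r was 0.70 with Sat1 and -0.71 with Amd2. Their part in the differences of Sms, Sat1 and Amd2 between groups was not tested.

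The genes most like Smox and Amd1 in their pattern over the 36 mice, among the 12052 others, overlapped between the 2 genes. For Amd1 they were Pgm1, a phosphoglucomutase (r = 0.96, rho = 0.95, and 0.92 without the 2 farthest mice), Golm1 (0.93) and Cdk19 (0.93). For Smox they were Pgm1 (0.95), Amd1 itself (0.93) and the pyruvate kinase Pkm (r = 0.90, and 0.70 without HFD-50% mouse 4 and HFD-25% mouse 6). Pgm1 had 369 CPM in its lowest and 1936 in its highest mouse. For Odc1 they were others, Serpinb6a (0.86), Ybx3 (0.83) and Slc15a4 (0.82). For Azin1, looked at after its values were seen, they were the BMP receptor gene Bmpr1a (r = 0.85, and 0.83 without HFD-U mice 1 and 2), Gprc5c (0.77) and 2510009E07Rik (0.77).

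The rest of the pathway was read from 6 lists of 39 further genes, of which 26 were expressed enough to test. Across the 6 groups 4 of these 26 were called and 1 passed, and over the distance with HFD-C 5 and 1, where 12.2% of all genes were called in either test (1.45% and 0.683% passed). The 1 was Slc7a2 in both, a transporter of arginine, lysine and ornithine (adjusted p = 0.0304 over the groups and 0.0366 over the distance). It had 51.0 to 129 CPM in HFD-C and 100 to 410 CPM in HFD-50%, with means of 91.9 ± 27.1 and 251 ± 108 (SD, n = 6), and its other group means lay from 115 to 143 CPM. The HFD-50% difference from HFD-C was 1.45 on the log2 scale (SE 0.291, adjusted p = 0.110). Over the groups the adjusted p was above 0.05 without HFD-50% mouse 2, 4 or 5 (highest 0.117) and with the library set fitted too (0.103). Over the distance it was above 0.05 without any 1 of 9 of the 30 mice (HFD-C 1, 3, 5 and 6, HFD-50% 1, 2, 4 and 5, HFD-U 6, highest 0.0748), with the library set fitted too and within the low set alone (highest 0.0824). Slc7a2 was thus highest in the group where Azin1 was lowest.

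Of the other 5 transporters tested, Slc7a1 was the nearest to the limit (called, adjusted p = 0.265), with means of 2.44 ± 0.933 CPM in HFD-25% to 4.81 ± 1.75 in NFD-C. Among 3 tested genes of ornithine supply, Aldh18a1, which makes the precursor of ornithine and proline, was called (adjusted p = 0.200) and Asl was not (adjusted p = 0.562). Aldh18a1 was at -0.75 in HFD-50% against HFD-C (SE 0.261, adjusted p = 0.318). Arg1, Arg2, Otc, Agmat and Ass1 were too low to test, with means of 0 to 0.836 CPM.

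Of 10 tested genes that supply S-adenosylmethionine or salvage methionine, Mat2b (called, adjusted p = 0.351) and Mtap (adjusted p = 0.497), which recycles the by-product of both synthases, came first, and 0 passed. The 4 genes that put hypusine, made from spermidine, onto eIF5A were all tested and 0 were called (Dhps adjusted p = 0.630, Eif5a2 0.723). Neither were Paox (adjusted p = 0.479), Sat2 (0.590) and Azin2 (0.826), while Satl1 and the testis antizyme Oaz3 were too low to test. Paox, which oxidizes acetylated polyamines, was at -0.75 in NFD-C against HFD-C (SE 0.282, adjusted p = 0.9996).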

How the data were processed

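The libraries, poly(A)-selected and sequenced from both ends, were aligned and counted by the authors, per their methods and processing notes with HISAT2 2.0.5 and featureCounts 1.5.0-p3. The deposited counts are whole numbers per gene and mouse without normalization, and gene model lengths in bases, another deposited column, were used only for FPKM. The notes name mm10, while the chromosome sequences and positions beside the counts are those of GRCm39, which is given for the genes. Promoters and transcripts came from GRCm38 references and were used only for sequence.

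Tests were run with edgeR 4.0.16 under R 4.3.3. A gene entered a fit when its mean count there reached 25, TMM factors scaled the libraries, and quasi-likelihood F-tests gave two-sided p-values, adjusted by Benjamini-Hochberg over all genes of the fit. The limit was 0.05, unadjusted (the limit of the study) and adjusted. Comparisons of 2 groups used those groups alone. CPM is scaled by TMM, correlations use log2 CPM with a prior count of 2. Depth was 13060090 to 27981702 counts per library. The steps were tested on simulated data.

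The 10 members and all lists were chosen with earlier results of these data known. Named besides the members are the 2 genes of each pathway list with the smallest p over the groups, genes of these lists past the adjusted limit, and the 3 genes most correlated with Smox, Odc1 and Amd1. Those for Azin1 were added after its values were seen.

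Alternatives were DESeq2 1.42.0, RLE size factors, no minimum count, the rRNA-linked share as a covariate, 1 library set only, 1 fit over all groups, Amd1 and Amd2 summed, the mouse number as a replicate block, and leaving out each mouse in turn. The library set as a term was chosen after seeing the data. With it, differences of running mice from HFD-C rest on HFD-C mice 5 and 6. Mice carry the numbers 1 to 6 in every group, with no stated pairing. In HFD-U and HFD-C all 6 same-numbered pairs had deviations from the group means correlated above 0.1 (0.122 to 0.514), so that comparison is also given with the block. Elsewhere 1 to 5 of 6 pairs did. The median r was 0.270 for HFD-U with HFD-C and 0.275 for HFD-25% with HFD-U, so these values do not establish a pairing. Reads of Amd1, Sms, Oaz1 and Oaz2 can be shared with processed pseudogenes, of which 6 had counts, Sms-ps the most (mean 388). No strand setting of the counting is given in the sources used here.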

Additional observations from a re-analysis of the deposited data

Results flagged for a closer look

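Of 60 groups of 6 mice, 1 for each member and group, 4 held a mouse whose gap to the nearest other was large for its group (Dixon's criterion at 95%, which chance passes in about 1 of 20 groups). Of these 4, 0 were in HFD-50% mouse 4. Smox was 1204 CPM in HFD-U mouse 2, and 394 to 597 CPM in the other 5. Azin1 was 50.2 CPM in NFD-C mouse 1 and 31.6 to 36.9 CPM in the others. Amd2 was 20.7 CPM in HFD-75% mouse 2 and 10.7 to 12.5 CPM in the others, and Oaz2 was 236 CPM in HFD-C mouse 6 and 125 to 167 CPM in the others.

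Azin1 differed between running groups in 1 test of the difference itself: it was 0.80 higher on the log2 scale in HFD-U than in HFD-50% in the fit over the 6 groups (adjusted p = 0.0319, edgeR). In the edgeR fit of these 2 groups alone it did not pass (adjusted p = 0.172). Of 7 other settings of that comparison 2 passed, and the highest adjusted p was 0.863. All 6 HFD-50% mice had less Azin1 than the HFD-U median of 38.0 CPM, but the ranges overlapped (up to 31.8 CPM in HFD-50%, from 30.4 in HFD-U).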

How the results depend on the processing

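Of 938 values of the members under the other settings, 783 kept their side of the limit and, where a value has a sign, their direction, 22 lost and 92 gained an unadjusted call, and 41 turned in sign. Of the 41, 2 were called in the report's fit, Amd2 and Sat1 in HFD-50% against HFD-U after correction for the rRNA-linked share, and the other 39 were called in neither fit. Without 1 mouse, 1999 of 2160 did, 39 lost and 67 gained a call, and 55 turned, 0 of them called in either fit. Where a count moved, the cause was not tested.

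Log2 differences that turned were as follows. With the library set as a term, and within 1 set, these turned against HFD-C: in HFD-25% Azin1 (0.043 and 0.055) and Odc1 (-0.095 and -0.086), in HFD-50% Smox (-0.089 and -0.076) and Srm (-0.28 and -0.27), and in HFD-75% Sms (-0.26 and -0.26). Also turned were in HFD-U Sms (-0.087 and -0.085), in NFD-C Azin1 (-0.031 and -0.039), Oaz1 (0.16 and 0.15) and Srm (0.082 and 0.075) and in runners Azin1 (0.10 and 0.10). With the rRNA-linked share they were, against HFD-C, in HFD-25% Azin1 (0.087) and Odc1 (-0.19), in HFD-50% Smox (-0.22) and Srm (-0.22), in HFD-75% Sms (-0.22), in HFD-U Sms (-0.048), in NFD-C Azin1 (-0.056), Oaz1 (0.17) and Srm (0.12) and in runners Amd1 (-0.042) and Azin1 (0.0076). Against HFD-U they were in HFD-25% Oaz2 (0.020), Sat1 (-0.0040) and Smox (0.0086) and in HFD-50% Amd1 (0.18), Amd2 (0.029), Sat1 (-0.0046), Smox (0.38) and Srm (-0.085). With the mouse number as a replicate block they were in HFD-50% Smox (-0.18) and Srm (-0.014) against HFD-C.

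Results that turned without 1 mouse had these ranges over the mice left out in turn. Against HFD-C, they were in HFD-25% Sat1 -0.065 to 0.077 and Sms -0.17 to 0.059, in HFD-50% Amd2 -0.15 to 0.21, Odc1 -0.0046 to 0.50, Smox -0.13 to 0.25 and Srm -0.16 to 0.15. They were in HFD-75% Oaz1 -0.10 to 0.10, Oaz2 -0.15 to 0.055, Sms -0.079 to 0.15 and Srm -0.13 to 0.042, in NFD-C Azin1 -0.0077 to 0.18 and Oaz1 -0.14 to 0.051 and in runners Sms -0.067 to 0.061. Against HFD-U, they were in HFD-25% Oaz2 -0.048 to 0.051, Smox -0.44 to 0.034 and Srm -0.039 to 0.062 and in HFD-75% Smox -0.46 to 0.018.

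In HFD-U against HFD-C with the library set as a term, 3 members were called, Oaz1, Oaz2 and Srm, in place of Smox, Odc1 and Amd2. For the other settings and without 1 mouse, the share of all genes called is not given in this report. A moved count of members therefore cannot be set against the share of all genes. Counts of members called (unadjusted unless said) were as follows where they moved by over 1.5 times. With the library set as a term they were 6 over the groups (0 adjusted), 3 in runners against HFD-C (1 adjusted), 3, 3 and 2 in HFD-25%, HFD-50% and HFD-75% against HFD-C, and 4 over distance with HFD-C (0 adjusted). Within 1 library set they were 2 in runners (1 adjusted), 3, 3 and 2 in the same groups, and 3 over distance (0 adjusted). With the rRNA-linked share they were 5 over the groups (0 adjusted), 2 in runners, 3 each in HFD-25%, HFD-50% and HFD-75% against HFD-C, 0 and 2 in HFD-25% and HFD-50% against HFD-U, 5 over distance with HFD-C (0 adjusted) and 1 among runners. In 1 fit over all groups they were 2, 4, 1 and 1 in HFD-25%, HFD-50%, HFD-U and NFD-C against HFD-C, and 1 adjusted in HFD-50% against HFD-U. With DESeq2 they were 2 in HFD-50% against HFD-C, 1 adjusted in HFD-50% against HFD-U, 2 over distance with HFD-C and 1 adjusted over distance among runners. Without a minimum count they were 2 in HFD-75% and 5 in NFD-C against HFD-C and 2 over distance with HFD-C.

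No label states a pairing by mouse number. With that number as a replicate block, 5 members were called in HFD-U and 5 in NFD-C against HFD-C, and 2 in HFD-75% and 2 in runners against HFD-C. There were 4 in HFD-25% and 2 in HFD-75% against HFD-U, 4 over distance with HFD-C, and 2 adjusted over the groups. RLE factors and the sum of Amd1 and Amd2 moved no count by over 1.5 times.

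Leaving out 1 mouse gave 2 to 4 members over the groups (0 to 1 adjusted), 0 to 2 in runners, 0 to 1 in HFD-25%, 1 to 3 in HFD-50%, 0 to 2 in HFD-75%, 1 to 4 in HFD-U and 1 to 6 in NFD-C against HFD-C, 0 to 1, 2 to 5 and 1 to 3 in HFD-25%, HFD-50% and HFD-75% against HFD-U, 1 to 3 over distance with HFD-C (0 to 1 adjusted) and 1 to 3 among runners. Depth limits Amd2 and Srm most, with 43 and 82 counts in their lowest libraries.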
